A study of Mus musculus with 9 samples.

Results

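Otic mesenchyme genes are described here by the open chromatin regions nearest to their start sites in sorted cells of the mouse cochlear duct. The 10 genes are Tbx18, Tbx15, Coch, Twist1, Twist2, Prrx1, Prrx2, Runx2, Col1a2 and Pdgfra. A peak belonged to a gene when its summit lay within 500 kb of a start site of that gene and no other protein-coding start site was nearer. By that rule 226 of 286921 peaks belonged to the 10 genes, and after peaks at most 100 bp apart were merged across samples they formed 60 of 69415 regions. The peaks came from ATAC-seq, in which a transposase cuts accessible DNA, and a peak is a stretch where cuts pile up above the local background.

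The periotic mesenchyme surrounds the epithelial cochlear duct and gives rise to the otic capsule, the fibrocytes of the spiral ligament and connective tissue. T-box, Twist and Prrx factors are known for their roles in mesenchyme of the head and limbs, and Runx2 is the defining regulator of bone-forming cells. Col1a2 encodes a chain of type I collagen, Coch encodes cochlin, an abundant matrix protein of inner ear fibrocytes, and Pdgfra encodes a growth factor receptor found on many mesenchymal cells.

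All samples came from B6;129S-Sox2tm2Hoch/J embryos, a knock-in strain with EGFP at the Sox2 locus, so the Sox2-EGFP- cells carried the allele too. Cochlear ducts were dissected out of the mesenchyme after enzyme treatment, and cells were sorted by EGFP into those with the highest signal (Sox2-EGFP+) and those with none (Sox2-EGFP-), while cells of low signal were left out. Sox2-EGFP+ cells had 2 samples per stage (E12, E14.5, E16), whereas Sox2-EGFP- cells had 2 samples from E16, 1 from E14.5 and none from E12. Each Sox2-EGFP+ replicate pooled the ducts of 1 litter, and Sox2-EGFP- cells were collected beside Sox2-EGFP+ cells in some cases, E16 among them, so samples of both cell types may share a litter. The cell type field of 3 of the 4 E16 samples (Sox2-EGFP+ replicate 2 and both Sox2-EGFP- replicates) names the other cell type than their title and source, and titles were followed here. Peaks nearest to 16 otic epithelium genes such as Sox2, Grhl2 and Gata3 numbered 38 to 44 among the 20000 highest peaks of the E14.5 and E16 samples titled Sox2-EGFP+ and 18 to 22 in those titled Sox2-EGFP-, including the samples with the conflicting field. Of the 16, Jag1 (means of 3.33 in Sox2-EGFP- and 2.25 in Sox2-EGFP+ samples) and Otoa (1.67 and 1.5) went the other way.

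The lists held between 7577 peaks (E12 replicate 2) and 66332 peaks (E14.5 Sox2-EGFP+ replicate 1), and the 3 Sox2-EGFP- lists held 23302 to 23899. They give no read counts, so no counting error is given for a peak, and the study's read totals per sample were not used here. Every region in the lists had peaks in at least 2 samples of a cell type, because peaks without a partner had been removed. A peak's rank is its place in its own list by the -log10 p of the peak caller, with rank 1 the highest. Both E16 samples numbered 1 came from sequencing batch 1 and the other 7 samples from batch 2.

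Sequences are shown first for the 6 distal regions (over 1 kb from a start site, at most 1 per gene) that had a peak in all 3 Sox2-EGFP- lists and in no Sox2-EGFP+ list, taken by their mean rank score in the Sox2-EGFP- samples over the 7500 highest peaks and, where that was tied, over the 20000 highest. They are shown because they were listed in 1 cell type alone. Each is the 200 bases around the summit, on the plus strand of mm9: chr12:34737006-34737205 near Twist1, chr9:87577247-87577446 near Tbx18, chr1:93720134-93720333 near Twist2, chr12:52605679-52605878 near Coch, chr1:165269047-165269246 near Prrx1 and chr6:4439413-4439612 near Col1a2. Capitals mark the letters of 6 motifs on either strand, namely CAGATG (the E-box read by Twist and other bHLH proteins), TAATTA (homeobox), TGTGGT (Runt), AGGTGTGA (T-box), TGANTCA (AP-1) and GGAATG (TEAD). No window held more than 1 match. The Prrx1 window lies outside the E16 Sox2-EGFP- replicate 1 peak of its region (chr1:165268706-165268974), so it does not hold the peaks of all 3 lists.
Twist1, 94.6 kb downstream: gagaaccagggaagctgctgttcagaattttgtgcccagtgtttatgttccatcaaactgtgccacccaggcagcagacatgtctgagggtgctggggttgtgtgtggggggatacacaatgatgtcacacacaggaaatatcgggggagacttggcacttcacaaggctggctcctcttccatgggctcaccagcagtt
Tbx18, 48.7 kb downstream: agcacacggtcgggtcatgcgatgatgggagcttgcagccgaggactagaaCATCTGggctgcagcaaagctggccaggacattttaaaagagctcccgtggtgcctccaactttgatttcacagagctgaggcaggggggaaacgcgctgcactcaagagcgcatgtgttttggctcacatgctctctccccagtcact
Twist2, 22.2 kb downstream: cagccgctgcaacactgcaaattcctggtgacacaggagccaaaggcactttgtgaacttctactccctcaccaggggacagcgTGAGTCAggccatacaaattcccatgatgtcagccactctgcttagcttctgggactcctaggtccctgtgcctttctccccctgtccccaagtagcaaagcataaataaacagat
Coch, 88.6 kb upstream: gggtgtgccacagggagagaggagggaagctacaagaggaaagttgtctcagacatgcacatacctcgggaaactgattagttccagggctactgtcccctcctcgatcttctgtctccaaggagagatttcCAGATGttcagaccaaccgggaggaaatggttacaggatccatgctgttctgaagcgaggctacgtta
Prrx1, 25.3 kb upstream: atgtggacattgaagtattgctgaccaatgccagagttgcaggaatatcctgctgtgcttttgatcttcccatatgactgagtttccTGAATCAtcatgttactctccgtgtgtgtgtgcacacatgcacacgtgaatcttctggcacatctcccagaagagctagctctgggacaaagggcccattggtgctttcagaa
Col1a2, 15.3 kb upstream: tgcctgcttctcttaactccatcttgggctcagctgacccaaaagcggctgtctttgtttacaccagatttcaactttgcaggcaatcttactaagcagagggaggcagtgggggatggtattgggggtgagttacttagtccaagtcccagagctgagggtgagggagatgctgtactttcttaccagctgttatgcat

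For contrast, the distal region with the largest difference in favour of Sox2-EGFP+ by the score over the 7500 highest peaks lay in an intron of Runx2, with its window at chr17:44725067-44725266. That score rested on 1 list alone, E12 Sox2-EGFP+ replicate 1 (rank 4196), a stage with no Sox2-EGFP- sample to set beside it. By the score over the 20000 highest of E14.5 and E16 the Runx2 region came after a region 68.7 kb upstream of Twist2 (differences of -0.38 and -0.57).
Runx2, 146 kb downstream: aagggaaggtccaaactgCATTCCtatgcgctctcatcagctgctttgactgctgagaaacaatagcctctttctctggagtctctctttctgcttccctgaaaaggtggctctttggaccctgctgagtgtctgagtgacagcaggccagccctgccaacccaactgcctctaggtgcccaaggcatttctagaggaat

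The CAGATG letters stood in the Tbx18 and Coch windows, TGANTCA in the Twist2 and Prrx1 windows, GGAATG in the Runx2 window, and none of the 6 motifs in the Twist1 and Col1a2 windows. In windows of the same length, CAGATG was present in 14 of the 60 regions of the 10 genes (23.3%) against 14.8% of 69357 regions of the series. The shares were 3.33% against 2.13% for TAATTA, 5% against 12.8% for TGTGGT, 1.67% against 0.683% for AGGTGTGA, 8.33% against 5.85% for TGANTCA and 13.3% against 12.8% for GGAATG. Median GC content was 54.2% in the 60 windows and 53.5% in all. Among the 17 regions with peaks in Sox2-EGFP- lists alone, CAGATG was found in 17.6% and among all such regions of the series in 26.8%. Among the 26 in Sox2-EGFP+ lists alone it was found in 9 (34.6%), against 16% of all such regions. Those are descriptions of letters in a window and carry no statement about binding.

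Regions with peaks listed in Sox2-EGFP- samples and not in Sox2-EGFP+ samples made up a larger share of the 10 genes' regions than of the series. Peaks stood in Sox2-EGFP- lists alone in 17 of their 60 regions (28.3%), against 5.63% of all 69415 regions. In Sox2-EGFP+ lists alone stood 26 of the 60 regions (43.3%, against 65.5% of all), and the remaining 17 had peaks in both cell types (28.3%, against 28.8% of all). Of the 17 regions found in Sox2-EGFP- lists alone, 10 had a peak in all 3 of those lists and 7 in 2 of them, 5 of these in the E14.5 sample and E16 replicate 1. They belonged to 8 of the 10 genes, all but Prrx2 and Pdgfra. Their summits lay a median 48.3 kb from the nearest start site, 10 between genes, 5 in introns and 2 in exons.

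Of these 17 regions 16 were distal. So were 3676 of the 3823 regions of the whole series in Sox2-EGFP- lists alone with a start site in reach. Of 49 distal regions, 16 had peaks in Sox2-EGFP- lists alone (32.7%, against 6.89% of all distal regions), whereas of 11 start-site regions, those within 1 kb, 1 did (9.09%, against 0.98% of all). A start-site region with a peak in all 3 Sox2-EGFP- lists was present at 8 of the 10 genes. The exceptions were Pdgfra, with 2 of 3 lists, and Tbx15, with none. Of the 26 regions in Sox2-EGFP+ lists alone, 14 had peaks in no list but the 2 longest, E14.5 replicate 1 and E16 replicate 2. The share was alike over the series, with 23951 of the 44608 such regions that had a start site in reach. Without the 2 longest lists the regions in Sox2-EGFP- lists alone numbered 22 of 46, against 11.4% of all, so list length moves these shares. Without the 3 samples with a conflicting cell type field they numbered 16 of 59, against 4.13% of all.

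**Figure D1:**
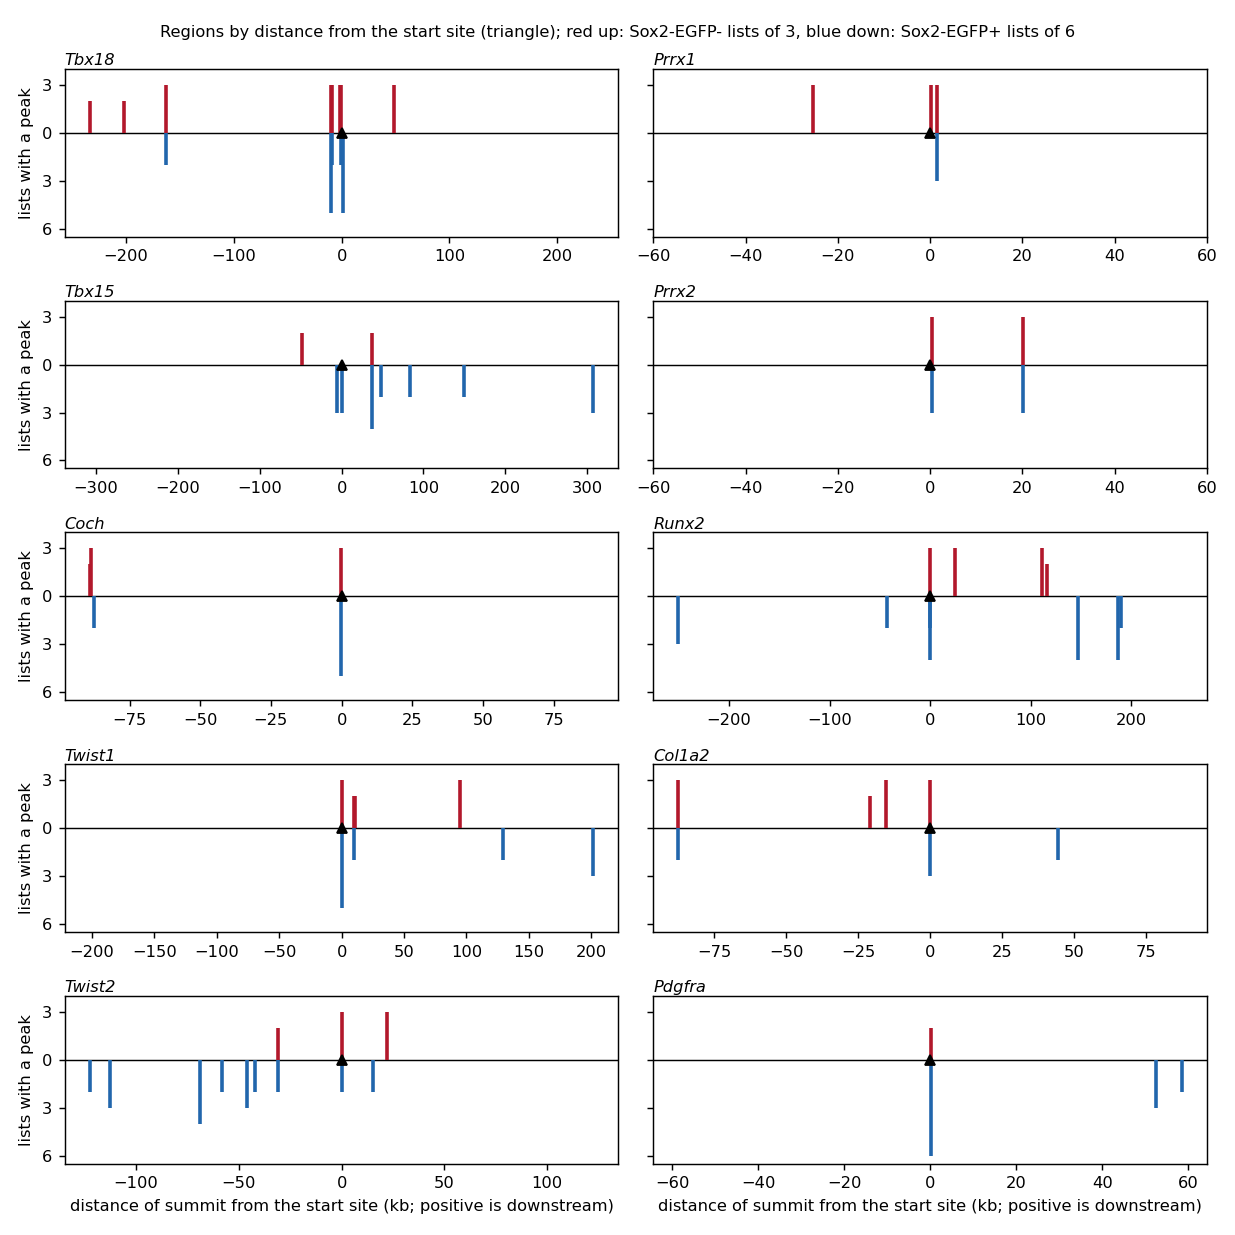
Each panel plots the regions of 1 gene by the distance of the summit from the nearest start site in kb. Red bars rise to the number of Sox2-EGFP- lists with a peak (of 3) and blue bars fall to the number of Sox2-EGFP+ lists (of 6). Bars of 1 colour alone are the 17 regions of Sox2-EGFP- lists and the 26 of Sox2-EGFP+ lists.

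The share of peaks that belonged to the 10 genes was higher in each Sox2-EGFP- list than in any Sox2-EGFP+ list. Per 1000 peaks, the genes had 1.37 at E14.5 and 1.38 and 1.17 at E16 in Sox2-EGFP- cells. In Sox2-EGFP+ cells they had 0.579 and 0.264 at E12, 0.648 and 0.436 at E14.5 and 0.61 and 0.698 at E16. The lowest Sox2-EGFP- sample thus stood above the highest Sox2-EGFP+ sample. In a bulk sample, fewer cells of a type and less open chromatin per cell cannot be told apart.

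To compare lists of unlike length, the peaks of each gene were counted among the 7500 highest of each of the 9 lists. Few of these genes reached that height, with 4 of the 10 among the 7500 highest of at least 2 lists (Tbx18, Twist1, Twist2 and Pdgfra), 2 in 1 list and 4 in none. Tbx18 had 2, 1 and 2 such peaks in the Sox2-EGFP- samples and 0 in all 6 Sox2-EGFP+ samples (p = 0.0119 in the two-sided exact permutation test, the smallest that 84 choices allow, adjusted p = 0.627). It passed the filter only through the samples in which it is high and so had to differ. It was the 1 gene of the 10 with every Sox2-EGFP- sample above every Sox2-EGFP+ sample, against 0.777% of 9907 genes tested, and none of the 10 lay below, against 1.31%. Twist1 had a mean of 1.33 against 0 and Pdgfra of 0 against 0.5, with overlapping samples. Of the 60 regions 5 passed the same filter and none separated the cell types, against 3.01% of 11221 regions above and 2.15% below.

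Over all genes, none passed an adjusted p of 0.05 in the exact permutation test, with 431 at an unadjusted p under 0.05, and limma, a linear model fitted across all genes, called 70 higher and 122 lower in Sox2-EGFP- cells. Tbx18 was the 1 gene of the 10 among the 70, under the same limit of the filter. Without the E14.5 Sox2-EGFP- sample, 4 of the 10 genes passed the filter and 2 separated the cell types, against 1.83% of all genes above. Of 3 regions that passed 2 did, against 6.72% of all regions above. Without E16 Sox2-EGFP- replicate 1 again 2 of 3 regions did, against 7.05%. Without the 3 samples with a conflicting field, which leaves 1 Sox2-EGFP- sample, no gene did. Ranking by fold enrichment instead of -log10 p also left no gene.

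A wider view was had from the 20000 highest peaks of the 7 lists of E14.5 and E16, since both E12 lists are shorter than that. All 10 genes then passed the filter. Their peaks together numbered 23 at E14.5 and 21 and 24 at E16 in Sox2-EGFP- cells, and 6 and 9 at E14.5 and 8 and 6 at E16 in Sox2-EGFP+ cells. The cell types did not overlap within either stage or within either sequencing batch, with 8 against 21 in batch 1. For 6 of the 10 genes (Tbx18, Coch, Twist1, Prrx1, Runx2 and Col1a2) every Sox2-EGFP- sample stood above every Sox2-EGFP+ sample, against 4.6% of 14755 genes, and for none below, against 5.54%. The median difference of the 10 was 1.54 peaks, against 0 over all genes.

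Each of the 6 had p = 0.0286 in the two-sided exact permutation test, the smallest that 35 choices allow, and adjusted p = 0.319 over all genes. In that test no gene of the series passed 0.05 after adjustment, with 1321 under 0.05 before it. The limma fit called 449 genes higher and 664 lower in Sox2-EGFP- cells, and 4 of the 10 were among the 449. Of these Runx2 (adjusted p = 0.000711) and Tbx18 (adjusted p = 0.0469) had peaks of that height in both cell types, while Col1a2 and Prrx1 had none in Sox2-EGFP+ samples, passed the filter only through the Sox2-EGFP- samples and so had to differ. The 6 genes stood apart without each of the 7 samples in turn, and Prrx2 joined them without E16 Sox2-EGFP+ replicate 1 or without E16 Sox2-EGFP- replicate 1. Without the 3 samples with a conflicting field, 6 genes stood above and 1 below of 8 that passed, with 10.4% of all genes above. With every peak of -log10 q of at least 5 counted, whatever the length of the list, 1 gene of the 10 stood apart, against 0.316% of all.

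**Figure D2:**
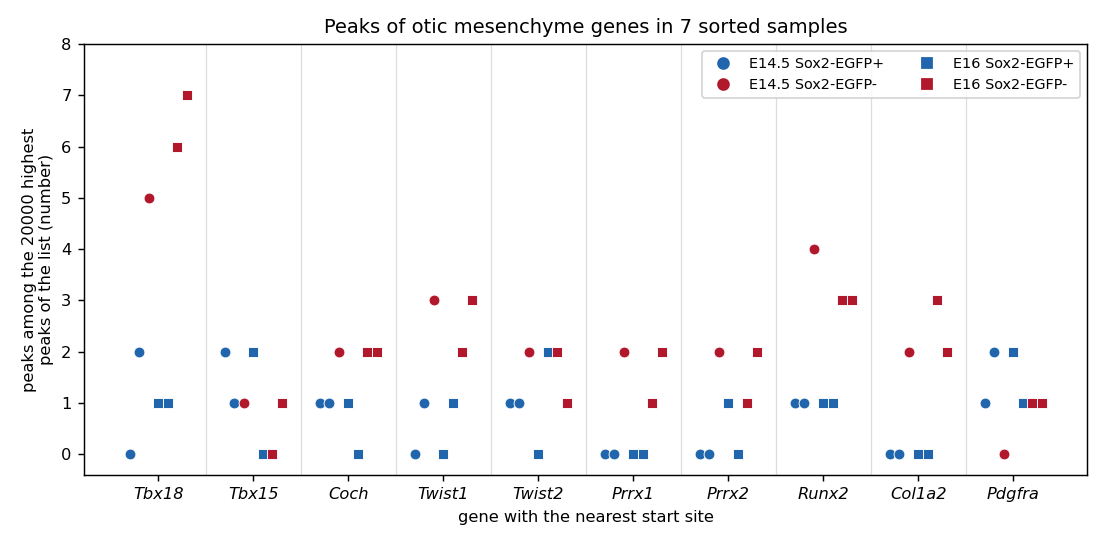
Points give, for each gene on the horizontal axis, the number of its peaks among the 20000 highest of 1 sample on the vertical axis. Blue is Sox2-EGFP+ and red Sox2-EGFP-, circles are E14.5 and squares E16. Red points lie above all blue points for Tbx18, Coch, Twist1, Prrx1, Runx2 and Col1a2, and not for Tbx15, Twist2, Prrx2 and Pdgfra.

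Tbx18, a T-box repressor of periotic and other mesenchyme (ENSMUSG00000032419, chr9:87597635-87626095, minus strand), had the largest difference of the 10. It had 5 peaks among the 20000 highest at E14.5 and 6 and 7 at E16 in Sox2-EGFP- cells, against 0 and 2 at E14.5 and 1 and 1 at E16 in Sox2-EGFP+ cells. The means were 6 ± 1 (SD, n = 3) and 1 ± 0.816 (SD, n = 4), with no overlap. Of its 9 regions, 4 stood in Sox2-EGFP- lists alone, at 48.7 kb downstream (the window printed above) and 1.68, 202 and 233 kb upstream. The downstream region ranked 8892 at E14.5 and 4245 and 14176 at E16.

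The Tbx18 start-site region (chr9:87625936-87626420) ranked 7411 at E14.5 and 11161 and 4852 at E16 in Sox2-EGFP- cells. In Sox2-EGFP+ cells it ranked 41774 in E14.5 replicate 1 and 31076 in E16 replicate 1 and had no peak in the other 4 samples. The ranks did not overlap, but the peaks themselves did. Fold enrichment was 5.81 in E14.5 Sox2-EGFP+ replicate 1, the longest list, above the 3.98, 4.92 and 5.36 of the Sox2-EGFP- samples. A region 163 kb upstream (chr9:87788862-87789713) ranked 4420, 9056 and 5258 in Sox2-EGFP- cells and 65206 and 61542 in the 2 longest Sox2-EGFP+ lists. It was the 1 region of the 60 that limma called in the E14.5 and E16 samples, and it too passed the filter only through the Sox2-EGFP- samples.

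Not every Tbx18 region went that way. A region 9.59 kb upstream had a peak in 8 lists, with ranks of 12691, 13849 and 16630 in Sox2-EGFP- cells inside the range of 8241 to 31550 in 5 Sox2-EGFP+ samples. The rank of 8241 came from E12 replicate 1, a list of 13817 peaks. A region 1.47 kb inside the gene, in an intron, had peaks in 5 Sox2-EGFP+ lists and in no Sox2-EGFP- list. Its ranks ran from 13272 at E12 to 41624 at E14.5.

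Tbx15, a T-box gene of skeletal and dermal mesenchyme (ENSMUSG00000027868, chr3:99057683-99158182, plus strand), did not share the pattern. Its counts among the 20000 highest peaks were 1, 0 and 1 in Sox2-EGFP- cells and 2, 1, 2 and 0 in Sox2-EGFP+ cells, which overlap (difference of -0.58 peaks, p = 0.629, exact permutation test). Of its 8 regions 6 stood in Sox2-EGFP+ lists alone. Its start-site region (chr3:99057545-99058342) ranked 52206, 29362 and 50137 in 3 Sox2-EGFP+ lists and had no peak in Sox2-EGFP- cells. The 1 region in Sox2-EGFP- lists alone lay 48.3 kb upstream in an intron of Wars2, at ranks of 21890 and 23520, near the end of lists of 23302 and 23848 peaks.

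Twist1, a bHLH factor of cranial mesenchyme (ENSMUSG00000035799, chr12:34642536-34644682, plus strand), had the highest-ranked peak of the 10 genes in Sox2-EGFP- cells. Its start-site region (chr12:34641710-34643698) ranked 8314 at E14.5 and 2833 and 5938 at E16 in those cells. In Sox2-EGFP+ cells it ranked 11379 at E12, 42481 and 13207 at E14.5 and 21460 and 51880 at E16, with no peak in E12 replicate 2. The ranks of the cell types did not overlap. Fold enrichment did, at 3.81, 7.7 and 5.17 in Sox2-EGFP- cells and 3.92 to 5.51 in Sox2-EGFP+ cells. The region merged peaks over unlike stretches, and that of the E14.5 Sox2-EGFP- sample spanned chr12:34641710-34642929. It did not overlap the peaks of E14.5 Sox2-EGFP+ replicate 2 (chr12:34643089-34643482) and E12 replicate 1 (chr12:34643309-34643635).

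The region 94.6 kb downstream of Twist1, in an exon of Hdac9, ranked 16616 at E14.5 and 6881 and 4432 at E16 and stood in Sox2-EGFP- lists alone. Further out in Hdac9, regions 129.7 and 202 kb downstream stood in 2 and 3 Sox2-EGFP+ lists alone. Among the 20000 highest peaks Twist1 had 3, 2 and 3 in Sox2-EGFP- samples and 0, 1, 0 and 1 in Sox2-EGFP+ samples. The means were 2.67 ± 0.577 (SD, n = 3) in Sox2-EGFP- cells and 0.5 ± 0.577 (SD, n = 4) in Sox2-EGFP+ cells, with no overlap.

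Twist2, its paralog (ENSMUSG00000007805, chr1:93698038-93744605, plus strand), had 2, 2 and 1 such peaks in Sox2-EGFP- cells and 1, 1, 0 and 2 in Sox2-EGFP+ cells, so the cell types overlapped (p = 0.371, exact permutation test). Single regions of the locus were nonetheless listed in 1 cell type alone. The intronic region 22.2 kb downstream of the start site stood in Sox2-EGFP- lists alone at ranks 17777, 9468 and 6232. Of the 10 Twist2 regions 7 stood in Sox2-EGFP+ lists alone. The 1 of them with a peak in 4 lists lay 68.7 kb upstream at ranks 13198 and 12413 at E14.5 and 20729 and 10175 at E16. The start-site region (chr1:93697483-93698777) ranked 12539, 15656 and 20340 in Sox2-EGFP- cells and 61547 and 54132 in the 2 longest Sox2-EGFP+ lists. As a percentage of the length of the list these ranks overlapped, at 53.8, 65.6 and 85.1 against 92.8 and 82.2. Fold enrichment overlapped too, at 3.5, 4.77 and 3.32 against 4.15 and 4.3.

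Prrx1 and Prrx2 encode paired-type homeobox factors of limb and craniofacial mesenchyme. Prrx1 (ENSMUSG00000026586, chr1:165175247-165243841, minus strand) had 2, 1 and 2 peaks among the 20000 highest in Sox2-EGFP- cells and 0 in all 4 Sox2-EGFP+ samples. Its start-site region (chr1:165243388-165243931) was the 1 start-site region of the 11 in Sox2-EGFP- lists alone, at the low ranks of 22172, 20489 and 22888. The region 25.3 kb upstream ranked 18062 at E14.5 and 18763 and 7764 at E16. The remaining region, 1.56 kb inside the gene, had peaks in both cell types. It ranked 19405, 22505 and 18986 in Sox2-EGFP- cells and 24412, 28514 and 48054 in 3 Sox2-EGFP+ lists. As a percentage of the length of the list, its ranks instead favoured Sox2-EGFP+ cells, at 83.3, 94.4 and 79.4 against 36.8, 72.5 and 73. Fold enrichment also favoured Sox2-EGFP+ cells, at 2.91, 3.15 and 3.55 against 8.07, 4.28 and 4.19.

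Prrx2 (ENSMUSG00000039476, chr2:30690492-30736761, plus strand) had 2, 1 and 2 peaks among the 20000 highest in Sox2-EGFP- cells and 0, 0, 1 and 0 in Sox2-EGFP+ cells, which touch at 1 (p = 0.0857, exact permutation test). Both of its regions had peaks in all 3 Sox2-EGFP- and in 3 Sox2-EGFP+ lists. The intronic region 20.1 kb downstream ranked 18739, 12102 and 17719 in Sox2-EGFP- cells and 37210, 21483 and 54580 in Sox2-EGFP+ cells. As a percentage of the length of the list these ranks overlapped, at 80.4, 50.7 and 74.1 against 56.1, 54.6 and 82.9, and so did fold enrichment, at 3.51, 7.06 and 4.73 against 9, 5.61 and 4.58. The start-site region (chr2:30700712-30701497) overlapped in rank, at 19395, 20986 and 10863 against 26589, 18507 and 35223.

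Runx2 (ENSMUSG00000039153, chr17:44633588-44951576, minus strand) had 4, 3 and 3 peaks among the 20000 highest in Sox2-EGFP- cells and 1 in each of the 4 Sox2-EGFP+ samples. The start-site region 0.207 kb upstream (chr17:44872748-44873592) was shared, with ranks of 17278, 18643 and 16835 in Sox2-EGFP- cells among 28680, 18626, 17206 and 20486 in Sox2-EGFP+ cells. Further regions lay in introns. Those 24.7, 111 and 116 kb downstream stood in Sox2-EGFP- lists alone, at ranks from 12869 to 22339. Those 146, 187 and 189 kb downstream were among the 6 in Sox2-EGFP+ lists alone.

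The Runx2 region 146 kb downstream ranked 4196 in E12 replicate 1, 9675 in E14.5 replicate 1 and 36512 and 14492 at E16. It had no peak in E12 replicate 2 or E14.5 replicate 2. Tbx15, Twist2 and Runx2 together held 19 of the 26 regions found in Sox2-EGFP+ lists alone.

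Of the matrix genes, Col1a2 (ENSMUSG00000029661, chr6:4454814-4491543, plus strand) had 2, 3 and 2 peaks among the 20000 highest in Sox2-EGFP- cells and 0 in all 4 Sox2-EGFP+ samples. Its start-site region (chr6:4455127-4456112) ranked 8577 at E14.5 and 10496 and 16932 at E16 in Sox2-EGFP- cells, and 43680, 25336 and 35143 in 3 Sox2-EGFP+ lists. The ranks did not overlap, but as a percentage of the length of the list they did, at 36.8, 44 and 70.8 against 65.9, 64.4 and 53.4. Fold enrichment overlapped too, at 4.94, 7.81 and 4.59 against 6.76, 5.13 and 5.71. Regions 15.3 and 21 kb upstream stood in Sox2-EGFP- lists alone, the nearer one at ranks 20939, 17330 and 12919.

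Coch (ENSMUSG00000020953, chr12:52694361-52706760, plus strand) had 2 peaks among the 20000 highest in each Sox2-EGFP- sample and 1, 1, 1 and 0 in Sox2-EGFP+ samples. The start-site region (chr12:52693958-52695149) was open in both, with ranks of 11823, 12620 and 12584 in Sox2-EGFP- cells and of 7323 to 41415 in 5 Sox2-EGFP+ samples. The rank of 7323 came from E12 replicate 2, the shortest list. There it stood at 96.6% of the length of the list, with a -log10 p of 5.32. What separated the cell types was 1 region 88.6 kb upstream. It ranked 11493, 8021 and 13766 in Sox2-EGFP- cells and had no peak in Sox2-EGFP+ cells. A region 89 kb upstream stood in 2 Sox2-EGFP- lists alone, at ranks 20919 and 23264, and so was not among the 20000 highest. A region 87.5 kb upstream went the other way and stood in the 2 longest Sox2-EGFP+ lists alone. Coch and Tbx18 were among the fibroblast markers that the study itself picked out on these samples, so their direction is not independent evidence.

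Pdgfra (ENSMUSG00000029231, chr5:75548316-75594229, plus strand) had 0, 1 and 1 peaks among the 20000 highest in Sox2-EGFP- cells and 1, 2, 2 and 1 in Sox2-EGFP+ cells, which overlap (p = 0.286, exact permutation test). Its start-site region (chr5:75551724-75553002) had a peak in all 6 Sox2-EGFP+ lists, at ranks of 7703 and 1190 at E12, 8834 and 2041 at E14.5 and 7859 and 4848 at E16. In Sox2-EGFP- cells it had no peak at E14.5 and ranked 14702 and 18723 at E16. The cell types did not overlap at E14.5 and E16 (difference in rank score of -1.79, p = 0.0571, adjusted p = 0.279, exact permutation test). This start-site region was the 1 of the 60, of which 27 were tested, with every Sox2-EGFP- sample below every Sox2-EGFP+ sample. Over the series, 3.87% of all 69415 regions stood below in this way, or 10.1% of the 26591 tested. Fold enrichment pointed the same way, at 4.93 to 9.43 in Sox2-EGFP+ cells and 4.19 and 3.34 in Sox2-EGFP- cells. No Pdgfra region stood in Sox2-EGFP- lists alone.

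**Figure D3:**
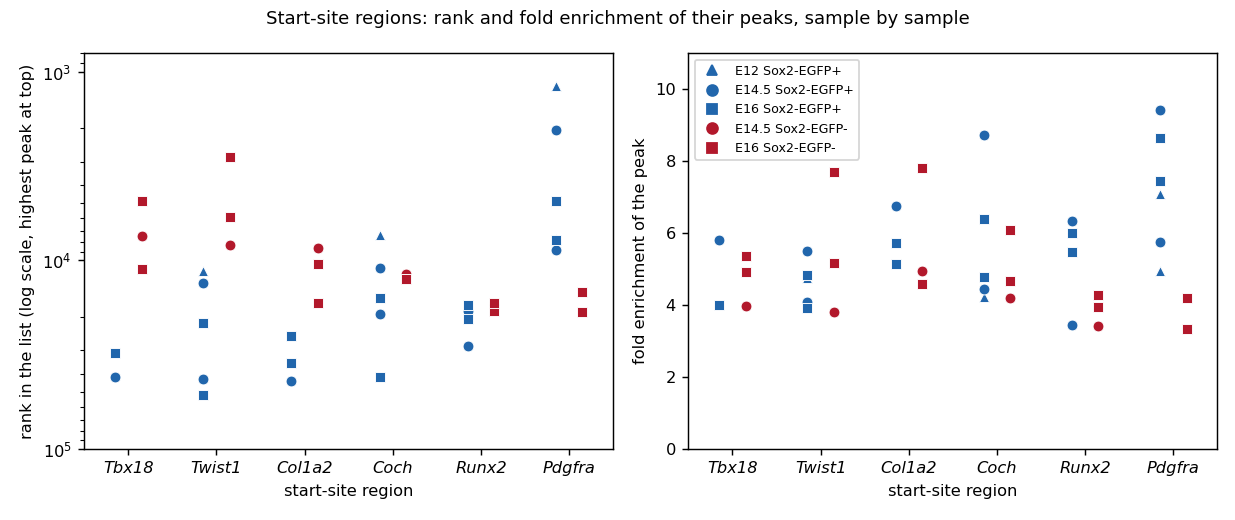
The start-site regions of 6 genes are plotted by the rank of their peak (left, log scale, highest at the top) and by its fold enrichment (right), with 1 point per sample that has a peak. Blue is Sox2-EGFP+ and red Sox2-EGFP-. Ranks of Tbx18, Twist1 and Col1a2 do not overlap between the cell types while their fold enrichments do, and Pdgfra is higher in Sox2-EGFP+ on both axes.

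Region by region, 27 of the 60 were among the 20000 highest peaks of at least 2 of the 7 E14.5 and E16 lists. Rank scores, which are log2((20000 + 1)/rank) and 0 for lower peaks, were higher in every Sox2-EGFP- than in every Sox2-EGFP+ sample for 12 of the 60 regions (20%), against 3028 of all 69415 (4.36%), or 11.4% of the 26591 regions tested. Each had p = 0.0286 and adjusted p = 0.217 in the exact permutation test. These were 3 start-site regions (Tbx18, Twist1 and Col1a2) and 9 distal ones, 7 of them in Sox2-EGFP- lists alone. All 12 passed the filter only through the Sox2-EGFP- samples, where they are high, and so had to differ. Without the 3 samples with a conflicting field, 2 regions stood above and 2 below of 8 that passed, with 23.4% of all regions above.

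**Figure D4:**
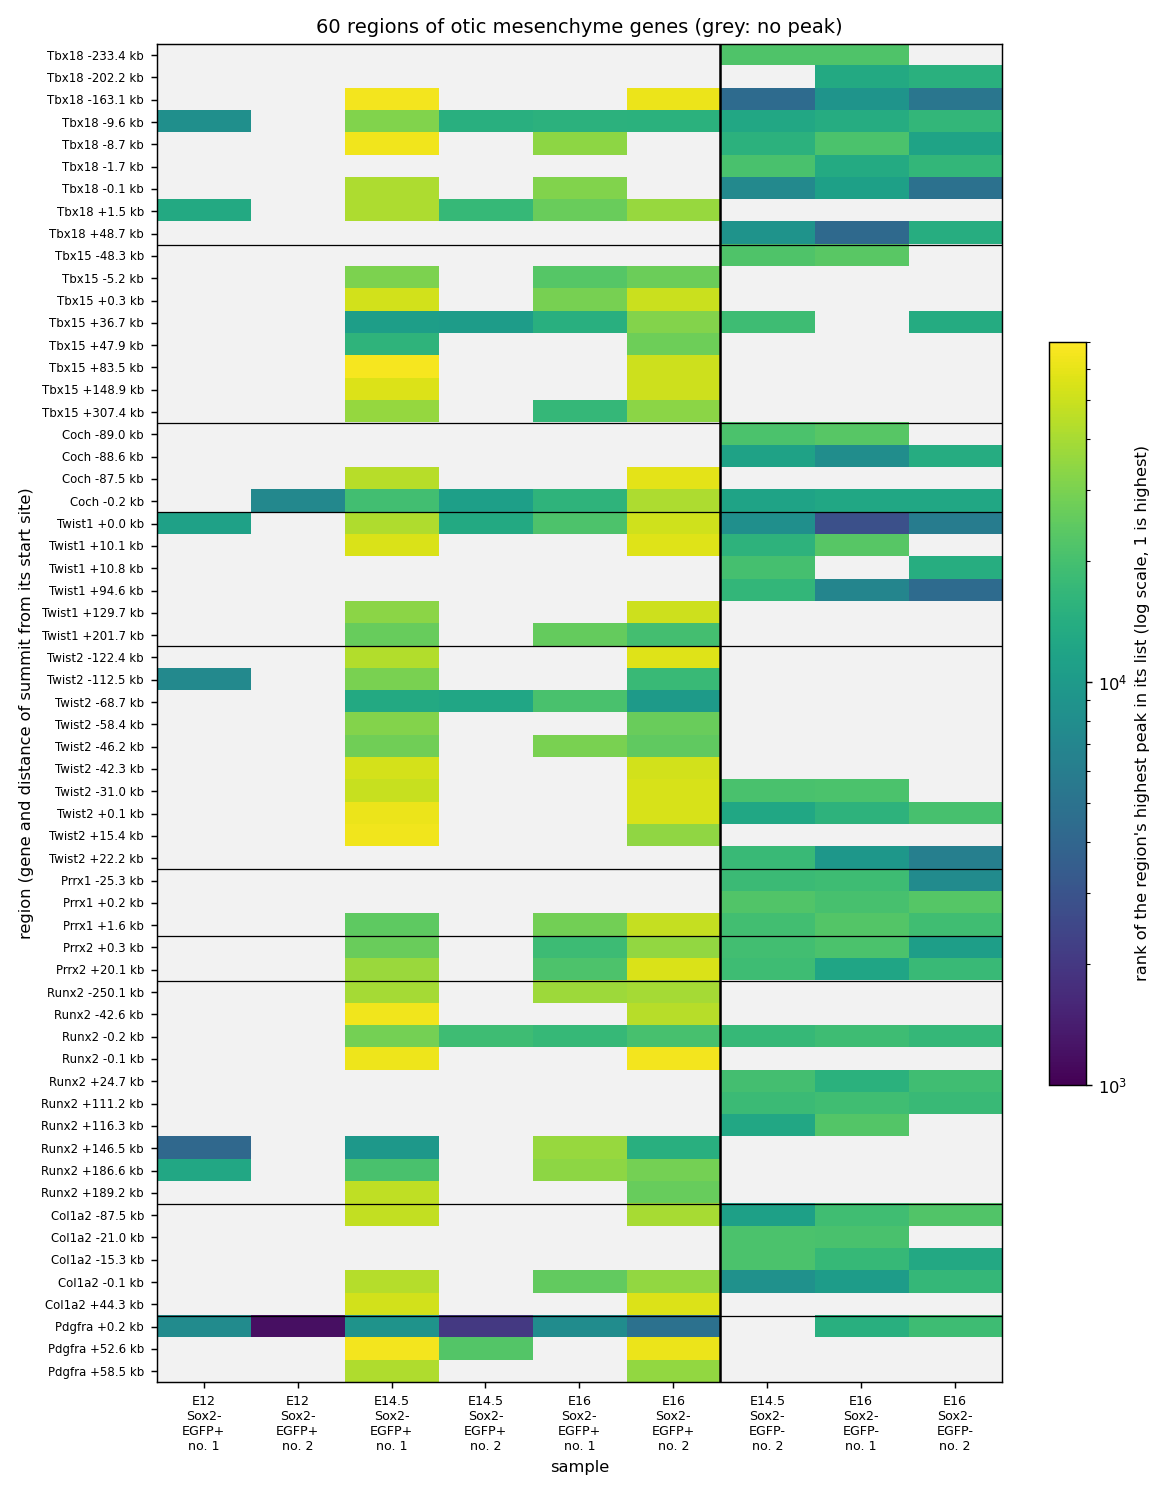
Rows are the 60 regions, named by gene and distance of the summit from the start site, and columns the 9 samples, with the 3 Sox2-EGFP- samples right of the vertical line. Colour gives the rank of the region's highest peak on a log scale, dark for the highest, and grey marks no peak. Start-site rows of Tbx18, Twist1 and Col1a2 are darker right of the line, and that of Pdgfra is darker left of it.

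By stage, the Sox2-EGFP- samples of E14.5 and E16 were alike in their totals among the 20000 highest peaks (23 against 21 and 24), and so were the Sox2-EGFP+ samples (6 and 9 against 8 and 6). At E12 the 10 genes had 8 and 2 peaks in all. With 1 Sox2-EGFP- sample at E14.5 no test of stage was made.

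A wider list of 30 other mesenchyme genes was counted the same way. Among the 20000 highest peaks they had 54 to 63 in Sox2-EGFP- samples and 31 to 41 in Sox2-EGFP+ samples. Of 28 that passed the filter, 5 stood above (Dcn, Zeb2, Foxd1, Foxf2 and Col3a1) and 2 below (Lum and Snai2), against 4.6% and 5.54% of all genes. Col3a1 had no such peak in Sox2-EGFP+ samples and Lum none in Sox2-EGFP- samples. Both passed the filter only through the samples in which they are high and so had to differ. Dcn, a small matrix proteoglycan, had a mean of 5.67 peaks against 1.75, and Zeb2, a repressor active in mesenchymal cells, 3 against 0.5. Foxd1, a forkhead factor, had 3.33 against 0.75, and Lum, another matrix proteoglycan, 0 against 1.25. Of their 195 regions, 27 stood in Sox2-EGFP- lists alone (13.8%).

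Markers of other cell types were counted beside these. The 8 endothelial genes had 12 to 16 peaks among the 20000 highest in Sox2-EGFP- samples and 2 to 8 in Sox2-EGFP+ samples, 3 of 7 tested (Kdr, Erg and Emcn) stood above and none below, and 11 of 56 regions (19.6%) stood in Sox2-EGFP- lists alone. Among them Tie1 was at 0 in every sample and Pecam1 in every Sox2-EGFP- sample. The 16 epithelial genes had 4 of 145 regions in Sox2-EGFP- lists alone (2.76%), 3 of them near Jag1, with 5 of 14 tested below and none above. The 8 cartilage genes had 16 to 27 peaks against 28 to 32, with Matn1 above and Sox5, Sox6 and Sox9 below. The 5 melanocyte genes 6 to 9 against 6 to 10 with Dct below, the 6 glial genes 2 to 3 against 2 to 5 and the 9 macrophage genes 1 against 1 to 2, with 1 macrophage gene above (Clec7a) and 1 below (Spi1) and Csf1r, Ptprc, Tyrobp, Cd68 and Itgam at 0 in all 7 samples. Endothelial markers thus moved with the otic mesenchyme genes, and their part in the result was not tested. Emcn, Clec7a, Spi1 and the epithelial gene Esrp1 passed the filter only through the samples in which they are high and so had to differ.

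**Figure D5:**
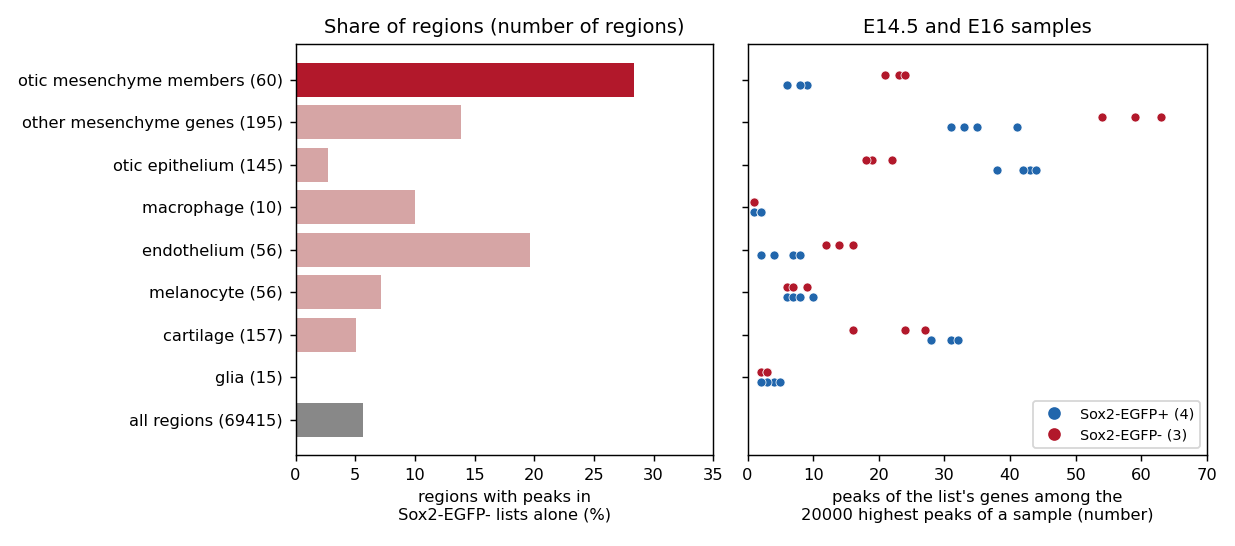
Bars on the left give the percentage of each gene list's regions with peaks in Sox2-EGFP- lists alone, with the number of regions in parentheses and all regions in grey. Points on the right give the number of the list's peaks among the 20000 highest of each E14.5 and E16 sample, blue for Sox2-EGFP+ and red for Sox2-EGFP-, in the same order from the top. The 60 regions of the otic mesenchyme genes stand at 28.3% against 5.63% of all, and red points exceed blue ones for the mesenchyme and endothelium lists.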

How the data were processed

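ATAC-seq was done on 9 sorted samples of mouse cochlear duct cells. Per the study's methods and the submitters' processing notes, reads were trimmed (Trim Galore), aligned to mm9 (Bowtie2), freed of duplicate and mitochondrial reads (Picard, SAMtools), and peaks called per sample (MACS2, with reads shifted and extended around the cut site), cleared of blacklisted regions and kept where another sample of the type had them. The deposited lists give for each peak a score, a ratio (fold enrichment), -log10 p and -log10 q values, and the summit, all as the authors' peak caller wrote them. The lists do not give depth per sample, and the read totals that the study tabulates were not used here. Of the peaks 2952 had no start site in reach.

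Summits were assigned to the nearest start site among protein-coding transcripts of GENCODE vM1 within 500 kb, and peaks at most 100 bp apart were merged into regions that take the gene of their highest-ranked peak. Peaks of different samples in 1 region can therefore lie beside each other without overlap. In each list peaks were ranked by -log10 p. Peaks per gene and rank scores per region (log2((7500 + 1)/rank), 0 below the 7500 highest) were compared between 3 Sox2-EGFP- and 6 Sox2-EGFP+ samples, over features among the highest of at least 2 lists, with two-sided exact permutation tests and Benjamini-Hochberg adjustment over all of them. The same was done with the 20000 highest peaks of E14.5 and E16 (3 against 4). The sources do not say which Sox2-EGFP- samples came from separate litters, so p-values measure only the spread between these samples, which may be technical. The limma package was fitted with a mean-variance trend. Other settings tried were 5000 peaks, ranking by fold enrichment, a -log10 q of 5, a reach of 100 kb, all transcripts, a merging distance of 0 bp, summed scores, distal peaks, batch 2, a replicate block and leaving samples out. The members and lists were chosen with earlier results of these data known. For each gene the text names the start-site region and the region most in favour of Sox2-EGFP- cells, scored over the 20000 highest peaks because few reached the 7500, and over all genes the regions most in favour of Sox2-EGFP+ cells by either score. Further regions are given to complete each locus. Sequences were read from the mm9 genome (NCBIM37). The macrophage gene Spi1 was matched by its older symbol. Scripts were tested on simulated data and run with Python 3.11.15, SciPy 1.17.1, R 4.3.3 and limma 3.58.1.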

Additional observations from a re-analysis of the deposited data

Results flagged for a closer look

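Of 10 groups of Sox2-EGFP+ samples checked for a sample far from the rest, 2 had one. The rule's rate of about 1 in 20 by chance does not hold for small counts. It flags any group in which all samples but 1 share the same count, as in both groups flagged here. Among the 20000 highest peaks, Coch had 0 in E16 Sox2-EGFP+ replicate 2 and 1 in each of the other 3 Sox2-EGFP+ samples of E14.5 and E16. Prrx2 had 1 in E16 Sox2-EGFP+ replicate 1 and 0 in the other 3. Both are differences of a single peak.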

How the results depend on the processing

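The number of the 10 genes with every Sox2-EGFP- sample above every Sox2-EGFP+ sample among the 7500 highest peaks was 1, and it was the same in 17 of 21 alternatives. It was 6 with the 20000 highest of E14.5 and E16, 0 when ranked by fold enrichment and 0 without the 3 E16 samples whose cell type field conflicts, and 1 to 2 without 1 sample each, with 2 when the E14.5 Sox2-EGFP- sample was left out. Of all genes tested 1.83% stood above without the E14.5 Sox2-EGFP- sample. The number of their regions was 0. It became 12 with the 20000 highest (against 11.4% of all regions tested), 2 in batch 2 alone (against 9.23%) and 9 with all peaks of -log10 q of at least 5 (against 1.86%). It was 0 to 2 without 1 sample each, with 2 when the E14.5 Sox2-EGFP- sample (against 6.72%) or E16 Sox2-EGFP- replicate 1 (against 7.05%) was left out. Under limma 1 of the 10 genes and 0 regions passed an adjusted p of 0.05, against 0 and 0 in the exact test.

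With the 20000 highest peaks, whose alternatives were chosen after seeing the data, the gene count of 6 stayed within 5 to 7 in 15 of 16 alternatives and was 1 with all peaks of -log10 q of at least 5, a setting in which lists of 66332 and 23302 peaks are no longer cut to one length. The region count of 12 ran from 9 to 16 in 14 of 15 alternatives and was 2 (with 2 below) without the 3 samples with a conflicting field, which leaves 1 Sox2-EGFP- sample. Without 1 sample each the counts were 6 to 7 and 12 to 15, against 5.36% to 7.02% of all genes and 13.5% to 19.4% of all regions tested. Under limma 4 genes and 1 region passed, against 0 and 0. Regions in Sox2-EGFP- lists alone numbered 13 to 22 in 18 alternatives, and 17 without each sample in turn, since every region has peaks in at least 2 lists of a cell type.

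In the replicate block, samples of the same stage and number were taken as pairs (3 pairs, with no p under 0.05 possible by sign flips). Of the 7500 highest, 1 gene and 0 regions were higher in all 3 pairs, against 2.09% of all genes and 12.1% of all regions tested. Of the 20000 highest, 6 genes and 12 regions were, against 6.93% and 19.5%. The counts were the same as without the pairing, but the paired rule is looser and the shares over all features were larger (11.4% of regions without it, 20000 highest). The E16 pairs deviated together weakly (r = 0.197 across 26591 regions, which are not independent), and with 1 pair at E14.5 the numbers were not taken to pair the samples. The lists do not give depth, so the loss of a peak in a short list was not told apart from closed chromatin.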
